A study of Mus musculus with 10 samples.

Results

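Adar, Apobec3, Eif2ak2, Isg20 and Zc3hav1 encode interferon-induced proteins that edit viral nucleic acid, destroy viral RNA or stop its translation. They were taken by name from a transcript table that carried 23370 symbols. Where a symbol had several transcripts, the one most abundant on average was kept. All 5 were in the table, and all 5 were among the 12168 genes tested, which reached 1 RPKM in 2 or more libraries. The rule that picked them uses names and abundance only, but the set was proposed with earlier results of these data known. RPKM is the read count of a transcript per kilobase of its length, scaled to the depth of the library, so levels can be compared between genes.

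RNA was sequenced from mouse embryonic fibroblasts (MEFs), connective tissue cells grown out of embryos. All cells were of the C57BL/6 strain and of the H3.3b-HA knock-in genotype, in which a cDNA for HA-tagged histone H3.3 stands in place of the H3f3b gene. Cells of a naive arm and of a pretreated arm were collected at 0, 1, 2, 4 and 6 h. Each combination has a single library, 10 in all. The antiviral cytokine interferon-beta (IFN-β) is labelled at 100 U/ml for every sample. The hours were taken as time since its addition. The pretreated arm was read as earlier exposure to interferon from the table's own column names (PreIFN). The sources used here give neither its dose, length and washout nor whether the cells came from 1 embryo or several. The later times have no unstimulated counterpart, so a change from 0 h cannot be told apart from an effect of time in culture.

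Type I interferon signals through a cell surface receptor and transcription factors of the STAT and IRF families, which bind a short element near the start of target genes. ADAR turns adenosine into inosine in double-stranded RNA, and APOBEC3 deaminates cytidine in the DNA copies of retroviruses. ISG20 is a 3′ to 5′ exonuclease. ZC3HAV1 (ZAP) binds CpG-rich viral RNA and recruits decay enzymes. EIF2AK2 (PKR) is activated by double-stranded RNA and phosphorylates the initiation factor eIF2, which stops protein synthesis.

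All 5 genes rose after stimulation, with differing courses. The promoter sequences of RefSeq (build GRCm38.p6, the coordinates of mm10) were searched for the letters of 3 interferon-type motifs on both strands. These were a tandem element of GAAA, any 2 bases and GAAA again, the shorter AANNGAAA bound by IRF factors, and TTCNNNGAA, bound by STAT dimers. Every match of the tandem element also holds AANNGAAA. Each promoter window ran from 250 bases before to 50 bases after a start site, and the 5 genes had 10 windows. The stretches around matches in Adar, Eif2ak2 and Apobec3 are shown. Capitals mark the tandem element or, where that was absent, AANNGAAA.
Adar, chr3:89730736-89730765, plus strand: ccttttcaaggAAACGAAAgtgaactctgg
Eif2ak2, chr17:78882535-78882564, minus strand: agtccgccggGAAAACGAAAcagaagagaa
Apobec3, upstream, chr15:79892258-79892287, plus strand: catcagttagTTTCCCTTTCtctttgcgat
Apobec3, near the start, chr15:79892434-79892457, plus strand: cgggaggtcagTTTCACTTctggg

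The Eif2ak2 match begins 19 bases into the transcript, and the upstream Apobec3 match, on the opposite strand, lies at base -140. Both have the tandem element, which 3.44% of all 32851 promoter windows held. The upstream Apobec3 stretch holds a further AANNGAAA match at base -134, only partly in capitals. The Adar match begins at base 30 of the downstream of its alternative first exons, and the second Apobec3 match at base 38. They hold the shorter motif without the tandem element. The shorter motif was found in 23.9% of windows. Isg20 had it at base -62 of a start site that no row of the table uses. TTCNNNGAA occurred in 1 window each of Adar, Eif2ak2 and Isg20, against 8.30% of all windows. In Adar it begins at base 23, within the stretch shown, and overlaps the letters in capitals. The single Zc3hav1 window held none of these letters, which says nothing about factors acting elsewhere.

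Library depth was 83907506 to 268463961 counts over the transcripts used, deepest at 4 and 6 h. The ribosomal RNA precursor Rn45s took 3.90% and 2.85% of counts in the pretreated 0 h and 1 h libraries, against 0.974% to 1.51% elsewhere, and its part in the results was not tested. Counting error is small at this depth. The widest 95% exact Poisson interval of any member value reached 5.68% above the value (Isg20 at naive 0 h), and such intervals cover counting error only, not differences between cultures. The naive 0 h library stood apart in coverage. Pairs of rows with the same ends, a different number of exons and more than 3000 counts in every library existed for 376 genes. The rows of a pair had equal counts in 46 genes at naive 0 h and in 4 to 19 in the other libraries. In that library 8094 symbols had 0 counts, against 4708 to 6282 elsewhere. Every rise of the naive arm is measured from it, and so is the difference between the arms at 0 h.

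Fibroblast markers were high in every library, with a summed level of 7430 to 10740 RPKM over 8 genes, Col1a1 and Vim among them. At pretreated 0 h their median log2 difference from naive 0 h was -0.57, with Col3a1 at 548 against 913 RPKM and Dcn at 45.3 against 78.6 RPKM. Pdgfra and Pdgfrb went the other way (28.2 against 19.3 and 143 against 119 RPKM), and Vim was at 2410 against 2420 RPKM. After stimulation 1 of the 8 rose in edgeR (Dcn, 0.55, adjusted p = 0.0289) and 1 fell (Thy1, -0.90, adjusted p = 0.0120). Blood cells also express Apobec3 and Isg20. The 4 lymphocyte markers, Cd3e, Ms4a1 and Cd79a among them, together stayed at or below 0.094 RPKM, and the macrophage markers Ptprc, Emr1, Csf1r and Lyz2 were each under 1 RPKM in all libraries. Cd14 and Cd68, which are not restricted to macrophages, brought the macrophage sum to between 6.53 and 8.76 RPKM in naive and between 7.21 and 12.4 RPKM in pretreated libraries. Of 4 endothelial and 5 epithelial markers, 2 and 3 were under 1 RPKM throughout. The epithelial keratin Krt19, at most 1.41 RPKM, was higher in pretreated cells by 1.14 in log2 (SE 0.15, edgeR adjusted p = 0.0285). Cdh1, the other tested epithelial marker, was more abundant, with up to 5.07 RPKM (naive 6 h). Its estimate between the arms had the opposite sign and did not pass (-0.24 in log2, SE 0.19, edgeR adjusted p = 0.495). The part of these marker differences in the results was not tested. In bulk RNA a change in the number of expressing cells and a change in RNA per cell cannot be told apart.

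**Figure D1:**
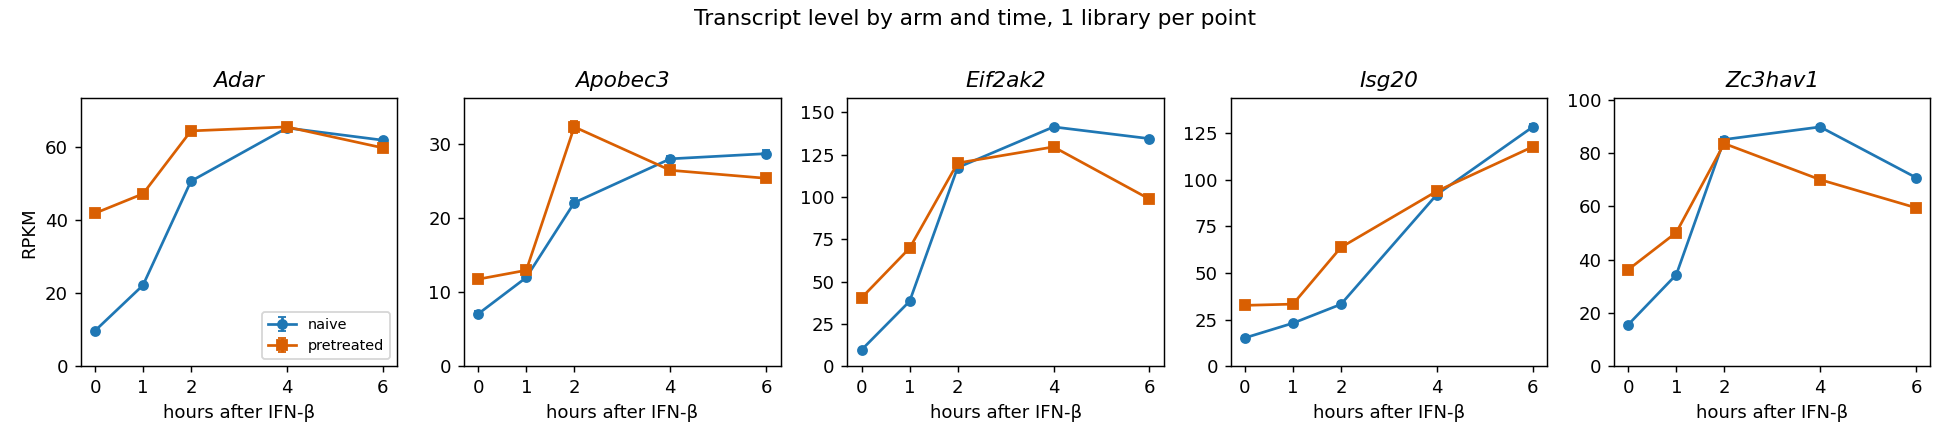
Transcript level (RPKM, vertical axis from 0) against hours after IFN-β for each gene, with circles for naive and squares for pretreated libraries, 1 library per point and exact Poisson 95% intervals that are mostly smaller than the symbols. Naive 0 h was the lowest point in all 5 panels, and the pretreated square lies above the naive circle at 0 h and below it at 6 h in each.

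Adar (chr3:89730718-89753455, plus strand, mm10), the editing enzyme, stood at 9.71 RPKM in naive cells at 0 h. It was at 22.2, 50.6, 65.2 and 61.8 RPKM at 1, 2, 4 and 6 h. Pretreated cells held 41.9 RPKM at 0 h and 47.2, 64.4, 65.5 and 59.7 RPKM at the later times. The pretreated arm thus started above the naive 1 h level, and the pretreated level was 1.004 times the naive one at 4 h and 0.966 times at 6 h. At 6 h Adar had the smallest fold over 0 h of all members in pretreated cells, 1.43, against 6.37 in naive cells.

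Apobec3 (chr15:79892408-79908429, plus strand), the cytidine deaminase, was the least abundant member. Naive cells had 7.08, 12.0, 22.1, 28.0 and 28.7 RPKM from 0 to 6 h. Pretreated cells had 11.8, 12.95, 32.3, 26.5 and 25.4 RPKM. The pretreated arm did not climb smoothly. It lay 1.08-fold above naive at 1 h and 1.46-fold above at 2 h, where Apobec3 had its highest value of all libraries, and it was below naive at 4 and 6 h.

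Isg20 (chr7:78914235-78920396, plus strand), the exonuclease, rose late. In naive cells it was at 15.2, 23.1 and 33.2 RPKM at 0, 1 and 2 h, and then at 92.1 and 128 RPKM at 4 and 6 h. In pretreated cells it was at 32.7, 33.3, 63.8, 93.9 and 118 RPKM. It was the one member whose highest value fell at 6 h in both arms. At 2 h the naive library had reached 25.9% of its 6 h level, where Apobec3, Adar and Eif2ak2 had reached between 76.9% and 87.3% and Zc3hav1 120.2%.

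Zc3hav1 (chr6:38310497-38354603, minus strand), the antiviral zinc finger protein, peaked and fell back. Naive cells had 15.7, 34.4, 85.1, 89.8 and 70.8 RPKM from 0 to 6 h. Pretreated cells had 36.3, 50.2, 83.6, 70.0 and 59.5 RPKM. The highest value came at 4 h in naive and at 2 h in pretreated cells, and the naive 6 h library was at 0.788 times the 4 h level.

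Eif2ak2 (chr17:78852550-78882572, minus strand), the kinase that blocks translation, had the widest range of the 5 genes, 14.5-fold between its lowest and highest library. Naive cells went from 9.75 RPKM at 0 h to 38.4, 117, 141 and 135 RPKM at 1, 2, 4 and 6 h. Pretreated cells had 40.5, 69.8, 120.1, 129.7 and 98.8 RPKM. At 2 h the arms were 1.02-fold apart, and at 6 h the pretreated library held 0.734 times the naive level, the largest shortfall among the members at that time.

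The order of the 5 genes by level changed with time. At naive 0 h Zc3hav1 and Isg20 were highest, with Poisson intervals of 15.2 to 16.1 and 14.4 to 16.1 RPKM that overlapped. Eif2ak2 and Adar followed, also with overlapping intervals (9.44 to 10.1 and 9.45 to 9.97 RPKM), and Apobec3 was lowest. At naive 6 h the order was Eif2ak2, Isg20, Zc3hav1, Adar and Apobec3, and no neighbouring intervals overlapped. With 1 library per point, no spread between cultures stands behind either order.

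Against naive 0 h, 3 of 5 members were 2-fold or more higher at 1 h on the log2(RPKM + 1) scale, where 2.02% of all tested genes were. These were Eif2ak2, Adar and Zc3hav1, the kinase with a log2 difference of 1.88 and the others with 1.11 and 1.09. Apobec3 and Isg20 had 0.68 and 0.57. At 2, 4 and 6 h all 5 were 2-fold higher, where 3.95%, 5.71% and 6.20% of all genes were. The median log2 difference of the members was 2.55 at 6 h, and that of all tested genes was -0.08. At 6 h the kinase stood at 3.66, Isg20 at 2.99, Adar at 2.55, Zc3hav1 at 2.11 and Apobec3 at 1.88. These differences have no replicate and therefore no test.

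In pretreated cells, 0 of 5 members were 2-fold above the arm's own 0 h at 1 h, where 1.31% of all genes were. At 2 h Apobec3, Eif2ak2 and Zc3hav1 were 2-fold higher (3.6% of all genes), at 4 h Apobec3, Eif2ak2 and Isg20 (4.19%), and at 6 h the same 3 as at 4 h (3.15%). The editing enzyme was not among them at any time, with a largest log2 difference of 0.63 at 4 h. Isg20 had the largest one at 6 h, 1.82.

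Over both arms together, all 5 members rose after stimulation. In edgeR's quasi-likelihood test on counts, with time and arm in the model and the mean of 2, 4 and 6 h set against 0 h, 39.9% of all genes passed an adjusted p of 0.05 and 19.9% passed in the upward direction. Eif2ak2 had the highest estimate, a log2 rise of 2.52 (SE 0.53, adjusted p = 0.0118 in edgeR). Isg20 rose by 1.91 (SE 0.29, edgeR adjusted p = 0.00565), Zc3hav1 by 1.67 (SE 0.33, edgeR adjusted p = 0.0102) and Apobec3 by 1.62 (SE 0.22, edgeR adjusted p = 0.00525). Adar, whose arms started far apart, rose by 1.52 (SE 0.45, edgeR adjusted p = 0.0333). Time points stand in for replicates here, so the p-values measure how unevenly the arms and times move, not the spread between cultures.

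All 5 calls rest on the naive 0 h library. Without it the log2 changes were 1.71, 1.55, 1.11, 1.31 and 0.78 in the order just given, the edgeR adjusted p lay between 0.0571 and 0.151, and 8 of 12168 genes passed. Without pretreated 0 h the changes were larger, 3.7025, 2.33, 2.37, 1.97 and 2.56 in the same order, and all 5 passed with edgeR adjusted p between 0.0156 and 0.0227. Adar also missed the threshold without naive 1, 2 or 6 h, without pretreated 1 or 2 h (adjusted p between 0.0504 and 0.0616), and without pretreated 1 and 4 h together (0.0698).

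At 1 h alone, set against 0 h over both arms, 0 of 12168 genes passed in edgeR (0.00%), and 1383 had an unadjusted p under 0.05. DESeq2 called 236 genes and limma 5, with 0 of the 5 members in either. Eif2ak2 had the largest log2 change of the members, 1.18 (SE 0.55, edgeR adjusted p = 0.451). It was 0.43 without naive 0 h and 2.44 without pretreated 0 h, and the estimate of Zc3hav1, 0.72, went to 0.20 and 1.46.

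**Figure D2:**
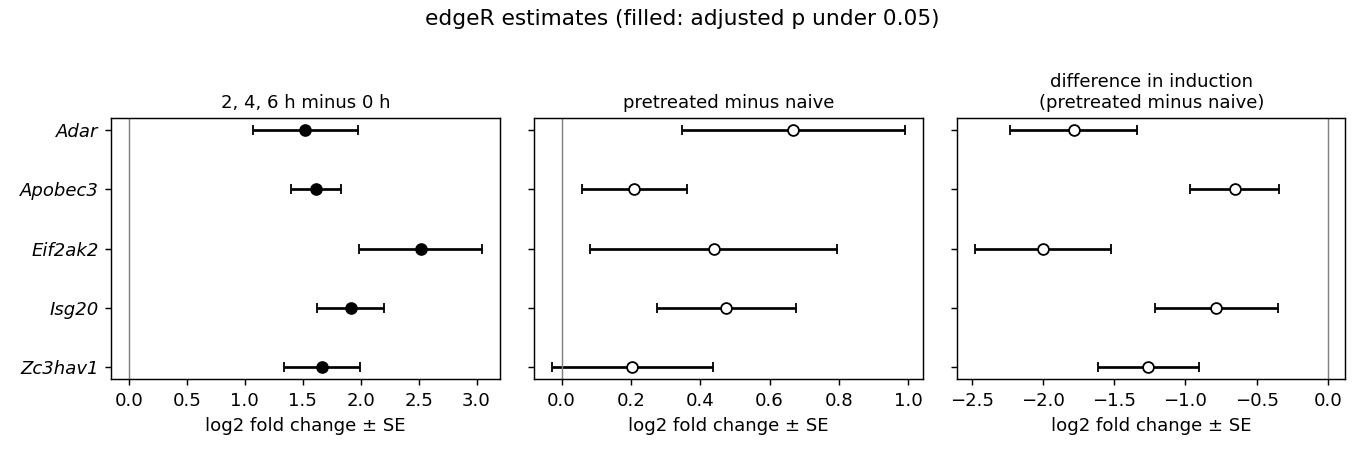
edgeR log2 fold changes (horizontal axes, each with its own scale) with standard errors for the 5 genes in 3 comparisons, with filled points where the adjusted p was under 0.05. Points are filled for 5 of 5 genes in the comparison with 0 h and for 0 of 5 in the other panels, and all points of the right panel lie below 0.

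Before restimulation, the pretreated cells carried more of every member's transcript. Adar was 4.31-fold and Eif2ak2 4.16-fold above naive 0 h in RPKM, Zc3hav1 2.32-fold, Isg20 2.14-fold and Apobec3 1.66-fold. On the log2(RPKM + 1) scale 4 of 5 were 2-fold or more higher, all but Apobec3, where 2.56% of all genes were. Adar and Eif2ak2, nearly level at naive 0 h, were thus nearly level again at pretreated 0 h, with 41.9 and 40.5 RPKM.

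These near-equal levels were different shares of what each gene reached in naive cells. Taking the naive rise from 0 h to 6 h as the scale, the pretreated 0 h library held 61.7% of that rise for Adar but 24.7% for Eif2ak2. For Zc3hav1 it held 37.4%, for Apobec3 21.6% and for Isg20 15.4%. Where the highest naive value is the scale instead, Zc3hav1 came to 27.8%, and Adar still came first with 57.9%. The naive arm itself had covered 22.7% to 23.9% of the rise at 1 h for Adar, Apobec3 and Eif2ak2, 33.9% for Zc3hav1 and 6.97% for Isg20.

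**Figure D3:**
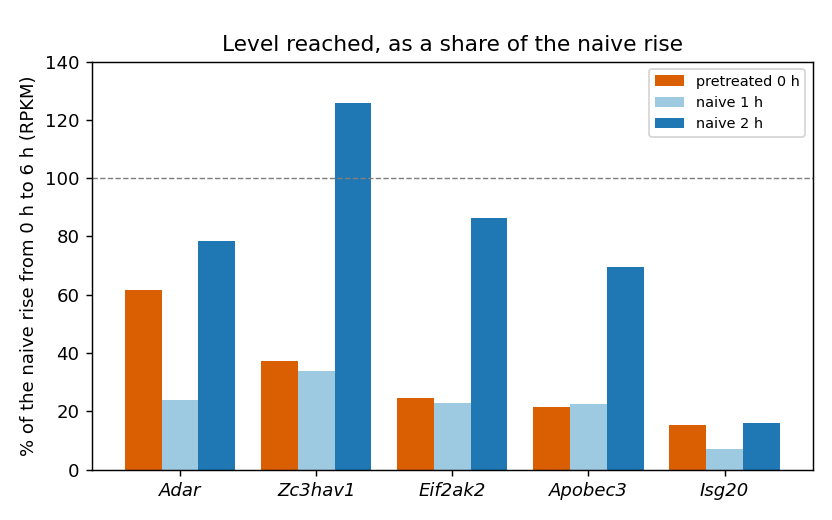
Bars give the level above naive 0 h as a percent of the naive rise from 0 to 6 h (vertical axis from 0) in the pretreated 0 h, naive 1 h and naive 2 h libraries, 1 library per bar, with a dashed line at 100%. Adar has the tallest pretreated 0 h bar at 61.7%, and at naive 2 h the bars run from 15.9% for Isg20 to 125.9% for Zc3hav1.

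At matched times the lead of the pretreated arm shrank. At 1 h the number of members 2-fold or more higher was 1, Adar with a log2 difference of 1.06, where 1.55% of all genes were. At 2 h it was 0 of 5, again with 1.55% of all genes, although Isg20 was at 0.92. At 4 and 6 h it was 0 as well (0.238% and 0.156% of all genes). The member median went from 1.16 at 0 h to 0.53, 0.34, -0.08 and -0.17, and at 6 h all 5 members were lower in the pretreated library, by 0.05 (Adar) to 0.44 (Eif2ak2). All-gene medians at these times lay between -0.03 and 0.05.

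**Figure D4:**
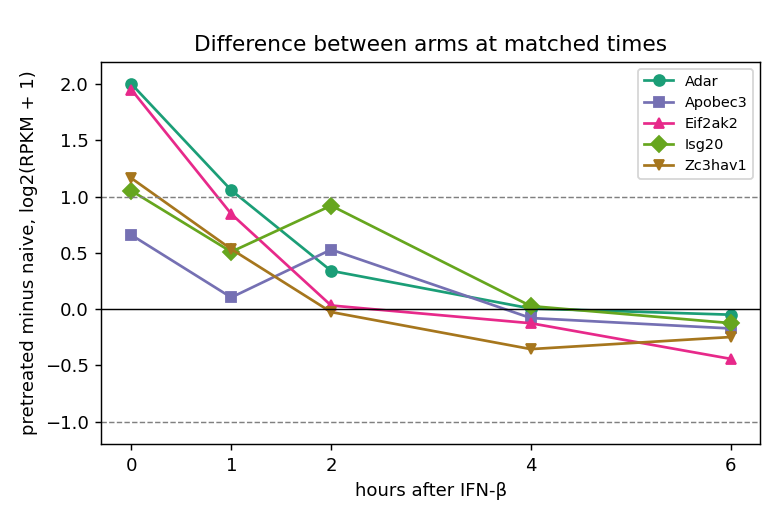
Pretreated minus naive difference on the log2(RPKM + 1) scale (vertical axis) at each time, 1 line per gene, with dashed lines at 2-fold in each direction and no error since each arm and time has 1 library. Adar and Eif2ak2 start near 2 and fall with time, while Apobec3 and Isg20 have a second, lower maximum at 2 h.

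Averaged over the 5 times, 0 of 5 members passed the test between the arms, where 1.27% of all genes did. Those 154 genes were 47 higher and 107 lower (limma gave 100 and 104). For Adar the estimate was 0.67 in log2 (SE 0.32, adjusted p = 0.274 in edgeR), and for Isg20 it was 0.48 (SE 0.20, adjusted p = 0.222). Isg20 was the 1 member of 5 with an unadjusted p under 0.05, a level that 21.9% of all genes reached. DESeq2 also called 0 of 5. The other estimates were 0.44 for Eif2ak2, 0.21 for Apobec3 and 0.20 for Zc3hav1. These values rest on the 0 h libraries. Without naive 0 h they were 0.33 for Adar, 0.32 for Isg20, 0.059 for Eif2ak2, 0.080 for Apobec3 and -0.043 for Zc3hav1. Without pretreated 0 h they were 0.33, 0.32, 0.062, 0.082 and -0.041. The values agree by design and are not a second check. With time in the model, a 0 h library without its counterpart says nothing about the arms.

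The change after 0 h was smaller in the pretreated arm for every member, but the test of that difference called 0 of 12168 genes in edgeR (0.00%), with 741 at an unadjusted p under 0.05. The largest of the members was Eif2ak2, whose induction differed by -1.9997 in log2 (SE 0.48, adjusted p = 0.595 in edgeR). Adar differed by -1.78 (SE 0.45, adjusted p = 0.595 in edgeR) and Zc3hav1 by -1.26 (SE 0.35, adjusted p = 0.675 in edgeR), and these 3 of 5 had an unadjusted p under 0.05, as did 6.09% of all genes. Isg20 and Apobec3 were at -0.78 and -0.65. DESeq2, which called 133 genes, called Eif2ak2 (adjusted p = 0.00302) and Adar (adjusted p = 0.00869). This comparison shares the 0 h libraries with the ones above, so its values repeat part of the same measurements.

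Several transcript rows were deposited for 4 of the 5 genes, and their counts differ by the exons they do not share. The row lengths recovered from count and RPKM differed by 99 bases for Apobec3, by 78 and 8 bases for the pairs of Adar rows, by 191 for Isg20 and by 388 for Zc3hav1. For Apobec3 the GENCODE transcripts differ by the same number. For the other genes they end elsewhere than the deposited rows, and the differences match once the ends of the deposited rows are used. For Apobec3 the parts not shared are exon 5 alone, which is coding sequence at chr15:79899020-79899118 (GENCODE M21, GRCm38). Mice of the C57BL/6 strain are known to make mostly Apobec3 mRNA that lacks this exon, shown here from the GENCODE transcript because its counts were almost absent.
Apobec3 exon 5, chr15:79899020-79899118, plus strand: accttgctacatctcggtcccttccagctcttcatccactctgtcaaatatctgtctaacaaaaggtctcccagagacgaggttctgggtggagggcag

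Exon 5 of Apobec3 had between 0 and 6 counts in each of the 10 libraries, while the rest of the transcript had 1564 to 17590. Naive cells had 0, 0, 6, 4 and 2 counts from 0 to 6 h, and pretreated cells 0, 6, 0, 1 and 4. Per base this was at most 3.22% of the mean coverage of the transcript, with an exact Poisson upper limit of 7.01% in that library. The 6 h naive library gave 0.271%, with an upper limit of 0.979%. A low share was thus seen in both arms and at all times. The rule that assigned reads on short exons was not stated.

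Adar has alternative first exons that lead to different proteins. An upstream one (chr3:89715022-89715150) belongs to a row with 2790 coding bases, and a downstream one, whose row starts at chr3:89730718, to a row with 3534. The downstream exon is the start known to respond to interferon and to give the long form of the enzyme. These rows differ in no other exon, so the difference of their counts is downstream minus upstream first-exon reads. It was -17, 43, 283, 1035 and 831 counts in naive cells from 0 to 6 h, which is -0.320%, 0.221%, 0.886%, 1.08% and 0.888% of the counts of the upstream row. In pretreated cells it was 0.704%, 0.687%, 0.877%, 0.973% and 0.959%. The naive 0 h library was the only one of the 10 with more upstream than downstream reads. Pretreated 0 h cells were already on the side of the interferon start, with 220 counts more. The stretch of the Adar promoter shown above lies at this downstream exon.

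A second Adar difference was less even. The last 78 bases of exon 7 (chr3:89745524-89745601) had 45.5% to 61.3% of the mean coverage in 9 libraries and 0 counts at naive 0 h, an upper limit of 5.20%. In that library paired rows with a different number of exons had equal counts in 46 of 376 genes. Its value is given with that coverage difference, whose part in it was not tested. The same holds for the first-exon value at naive 0 h.

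For Zc3hav1 the long row, which ends in the PARP-like domain, has 2838 coding bases and the short row 2367. The difference of their counts is long-form minus short-form end reads, as a percent of the short row. In naive cells it was 10.7%, 11.1%, 15.1%, 15.7% and 15.9% from 0 to 6 h. In pretreated cells it was 10.1%, 11.6%, 12.3%, 13.96% and 14.5%. The long row is also the longer one in recovered bases, 3784 against 3396, so even coverage alone would give a positive difference. These percents are therefore not the fraction of the long form. The difference was lower at 0 and 1 h than at 4 and 6 h in each arm, and from 2 h on it was higher in the naive library.

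Isg20 has a pair of first exons with the same 543 coding bases downstream. Reads of the upstream exon (chr7:78913765-78914042) exceeded those of the start of the downstream one by 3.27% to 6.29% of the row in 9 libraries. This excess is in counts, not per base. The upstream part has 278 bases and the downstream part 87, so even coverage alone would give an excess. At naive 0 h the upstream reads exceeded the downstream ones by 0.629%, or 8 counts, in the library that stands apart.

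**Figure D5:**
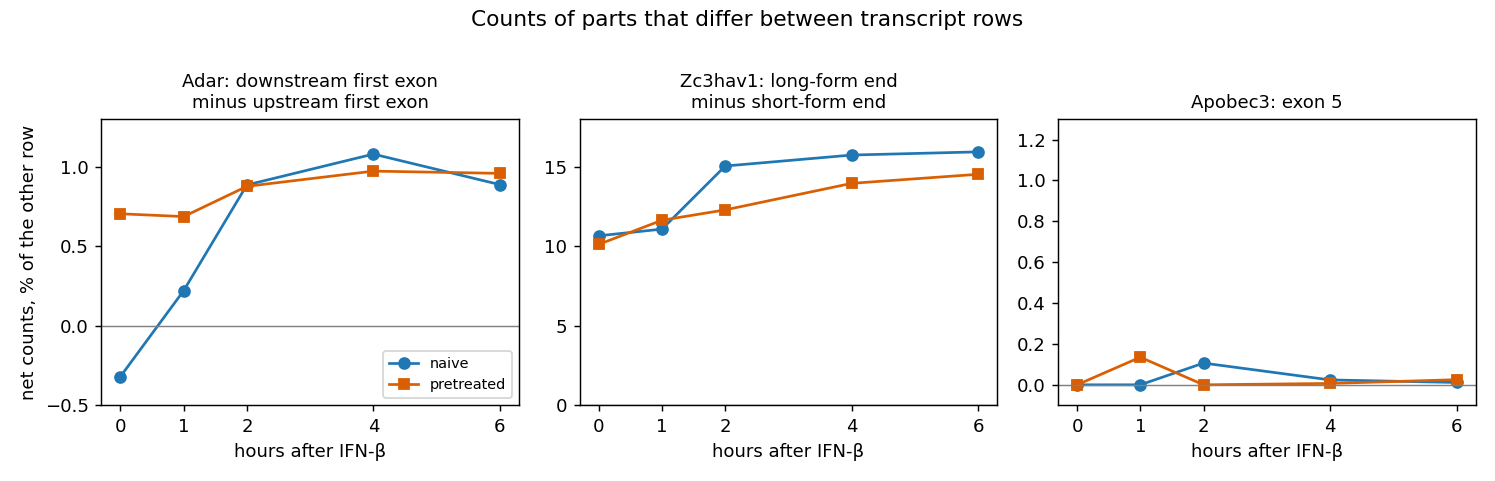
Net counts of the parts that differ between deposited transcript rows, as a percent of the counts of the other row (vertical axes, each with its own scale), against hours after IFN-β, with circles for naive and squares for pretreated libraries and 1 library per point. The Adar difference runs from -0.320% at naive 0 h to 1.08% at naive 4 h, the Zc3hav1 difference from 10.1% to 15.9%, and Apobec3 exon 5 stays at or below 0.135%.

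Strand was not stated for the counting. Chrnb2, which overlaps the end of Adar on the opposite strand, was at most 0.087 RPKM. D730005E14Rik overlaps the start of Apobec3 on the same strand and was between 0.273 and 1.81 RPKM, so its reads could form a small part of the Apobec3 value. Gm26637 overlaps Eif2ak2 and had no deposited row, so its part in the Eif2ak2 value is unknown.

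Other genes of RNA editing, decay and translation control moved less uniformly. The table held 49 such genes, of which 46 were tested. After stimulation 13 rose (28.3%, against 19.9% of all genes) and 7 fell (15.2%, against 20%) in edgeR. Among those that rose was the mRNA-editing deaminase Apobec1, by 2.24 in log2 (SE 0.34, adjusted p = 0.00565 in edgeR). A230050P20Rik, the shiftless inhibitor of ribosomal frameshifting (current symbol Shfl), rose by 2.09 (SE 0.41, edgeR adjusted p = 0.0102), and the decapping enzyme Dcp2 by 1.97 (SE 0.22, edgeR adjusted p = 0.00498).

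The genes that fell included Zc3hav1l, a relative of Zc3hav1, by 1.13 (SE 0.19), the tRNA deaminase Adat1 by 0.86 (SE 0.19), the exosome subunit Exosc5 by 0.77 (SE 0.17) and the second adenosine deaminase Adarb1 by 0.66 (SE 0.14), with edgeR adjusted p between 0.00684 and 0.0139. Zc3hav1l was at 10.2 RPKM at naive 0 h and between 2.44 and 5.98 RPKM in the other 9 libraries. Adarb1 was between 1.93 and 4.62 RPKM throughout, and Adarb2 and Apobec2 were under 1 RPKM in all libraries. Without the naive 0 h library 0 of the 46 genes passed. By role, 9 of 23 decay genes rose and 3 fell, 1 of 5 tested editing genes rose and 2 fell, and 3 of 18 translation genes rose and 2 fell. Between the arms 0 of the 46 passed in edgeR, with 8 (17.4%) at an unadjusted p under 0.05, against 21.9% of all genes. DESeq2 called 4 higher and 1 lower, where it called 11.3% of all genes. At 1 h edgeR called 0 of 46, with 11 (23.9%) at an unadjusted p under 0.05 against 11.4% of all genes, and DESeq2 called 5 higher and 1 lower (1.94% of all genes). For the difference in induction edgeR called 0 of 46, with 3 (6.52%) at an unadjusted p under 0.05 against 6.09% of all genes. There 1 gene of the list was lower in each of DESeq2, limma with either pseudocount, and edgeR with no filter or at 5 RPKM. That is 2.04% to 2.44% of the list. Of all 12168 genes, DESeq2 called 133 in either direction (1.09%), and limma 15 and 23 with pseudocounts of 1 and 0.1. Calls in edgeR were 28 of 20289 genes with no filter and 9 of 9360 at 5 RPKM.

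Trim25, a ubiquitin ligase and cofactor of ZAP, was at 10.0, 57.0, 102.6, 75.1 and 62.0 RPKM in naive cells, with its highest value at 2 h where Zc3hav1 had its own at 4 h. In pretreated cells it was at 36.5, 51.8, 79.6, 63.3 and 57.7 RPKM, and there both genes were highest at 2 h. Its difference in induction was -2.10 in log2 (SE 0.16, edgeR adjusted p = 0.0516), which did not pass in edgeR with the filter of 1 RPKM. The other eIF2 kinases Eif2ak1, Eif2ak3 and Eif2ak4 were tested, and none of them passed in the comparison with 0 h.

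The tested genes whose log2(RPKM + 1) course was most like that of each member over the 10 libraries differed between members. These are Pearson correlations over libraries that share time, arm and depth, given as a description. For Adar they were Parp10 (0.991), Ddx58 (0.990) and Dhx58 (0.989), of which the last encodes a helicase of the RIG-I family, as does Ddx58. For Eif2ak2 they were Parp14 (0.995), Samd9l (0.994) and Gbp7 (0.992). Parp14 was also first for Zc3hav1 (0.988), followed by Ino80 (0.985) and Gm12185 (0.979). Apobec3 was closest to Tbk1 (0.994), Gm12216 (0.987) and 9930111J21Rik1 (0.985), and Isg20 to Mocos (0.991), Epsti1 (0.986) and Asah2 (0.986). Among the members, Eif2ak2 and Zc3hav1 were most alike (0.984), and Isg20 and Zc3hav1 least (0.747).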

How the data were processed

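The source was 1 deposited table that lists, per the file headers, counts and RPKM of each library over the RefSeq transcripts of mm10. The counts were deposited unnormalised, and the RPKM values were computed by the authors. Per the submitters' processing notes, Bowtie, TopHat and Cufflinks 1.2.1 were named with no role. Not given in the sources used here are the counting tool, strand setting, treatment of reads with several alignments and library factor of RPKM. Of 30646 rows, 15 named no gene (0.0157% to 0.0193% of counts) and were left out. The members and lists were chosen with earlier results of these data known. Tests used edgeR 4.0.16 (R 4.3.3) with trimmed mean of M values scaling, 2-sided, with Benjamini-Hochberg adjustment over 12168 genes. Residual degrees of freedom were 4, and 3 with the term for arm by stimulation (0 h against later). Standard errors are the log2 change over the root of F. Single libraries were compared on log2(RPKM + 1), which understates folds of low genes. DESeq2 1.42.0, limma 3.58.1, other filters, pseudocounts, scalings, transcript rows and leaving out libraries were alternatives. Named genes were the 5 members, the 3 genes most correlated with each, and up to 4 called genes per direction of the fixed RNA defence list, of which 1 is not reported here.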

Additional observations from a re-analysis of the deposited data

How the results depend on the processing

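No paired analysis was possible because each arm and time has 1 library and the labels give no replicate numbers; time point is already a term of the model. Of 12168 genes, 154 passed between the arms, against 1371 in DESeq2, 316 with no filter and 14 without the pretreated 1 h and 4 h libraries (chosen after seeing the data). Leaving out 1 library gave 2 to 175. In the comparison with 0 h 4859 passed, and leaving out 1 library gave 8 to 4983. At 1 h 0 passed, against 236 in DESeq2, 5 with no filter and 5 in limma with either pseudocount, and 0 to 24 with 1 library left out. For the difference in induction 0 passed, against 133 in DESeq2, 28 with no filter, 9 at 5 RPKM, and 15 and 23 in limma with pseudocounts of 1 and 0.1. Leaving out 1 library gave 0 to 0 there, and the fit could not be made without a 0 h library. With limma the share of higher calls between the arms was 49.0%, against 30.5%. Causes were not tested.

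Member directions turned in 4 leave-outs, all of values that had not passed. Between the arms Zc3hav1 ran from -0.0434 (without naive 0 h, and -0.0407 without pretreated 0 h) to 0.348. Leaving out either 0 h library is in effect the same fit for the arms, so these turns are not independent. At 1 h Adar ran from -0.165 and Isg20 from -0.0745, both without naive 0 h, to 1.63 and 0.715 without pretreated 0 h. After stimulation, 39 of 40 member values under other settings and 40 of 50 with 1 library left out stayed past the threshold. A pseudocount of 0.1 and count scaling changed no count of members 2-fold apart by more than 1.5 times. Other transcript rows entered the edgeR tests only, where no member gained or lost its call. With 1 library per group, the data cannot separate culture differences from those of arm and time.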
